A study of Oryza sativa with 4 samples.

Results

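The circadian clock genes of rice were described from RNA-seq of the control line Nip, in tissue labelled young panicle, the developing inflorescence. Transcripts of seed endosperm were also abundant in these libraries, as given below. The 9 genes were taken by locus ID: OsLHY/OsCCA1 (LOC_Os08g06110), OsPRR73 (LOC_Os03g17570), OsPRR37 (LOC_Os07g49460), OsPRR95 (LOC_Os09g36220), OsPRR59 (LOC_Os11g05930), OsPRR1 (LOC_Os02g40510), OsGI (LOC_Os01g08700), OsELF3-1 (LOC_Os06g05060) and OsPCL1/OsLUX (LOC_Os01g74020). All 9 were found, on 10 of the 57143 rows of the expression table, among 53457 locus IDs that stand alone on a row. OsPRR37 is the gene with a pair of rows. A RefSeq gene of the same symbol on the same chromosome, matched by either length or position, was found for 8 of the 9. No RefSeq gene carried the symbol OsPRR59, so that name rests on the selection by locus ID alone.

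The labels give 4 samples of japonica rice, 2 titled Nip with the genotype control and 2 titled osrdr2-3 with the genotype DES1 mutant, all from soil-grown plants. Only the Nip samples were analysed (n = 2 for every mean ± SD), because the names of the mutant libraries in the table could not be matched to single mutant samples. A further library with the control prefix, ck3, matches no sample of the labels used here and was not analysed. The labels used here give no plant age and no hour of harvest, and they do not say whether replicates are separate plants, so the spread between them may be technical. The comparison made here is how far these Nip libraries differed in each clock gene. The genotypes were not compared by the prefix of the library names, and whether their harvest times were matched was not tested. Without an hour of harvest the levels give no phase of the clock, and whether the libraries were collected together is not stated.

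The plant clock is a set of transcription factors and partner proteins that repress one another in turn over the day. LHY, a single-MYB repressor, peaks around dawn. The pseudo-response regulators (PRRs) follow in sequence through the day. GIGANTEA and the evening complex, of which ELF3 and LUX are subunits, peak towards dusk. Because the transcripts cycle, the level of a clock gene in a sample reflects the hour of collection as well as the tissue. In rice the same genes set heading date, and alleles of OsPRR37 and OsELF3-1 are known as heading date loci.

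The libraries were alike in depth and held floral as well as endosperm transcripts. Values are FPKM, fragments per kilobase of transcript scaled to library size, and levels of different genes are set side by side on this scale. The expression estimator is not known, and bias that differs from gene to gene was not tested. Where a pair of levels is given for a gene, replicate 1 comes first. By an approximate estimate, 1 FPKM over 1 kb of transcript stood for 23.5 fragments in replicate 1 and 22.1 in replicate 2. Of 7 floral organ identity genes, the 6 that could be paired with their symbol stood between 16.7 and 1686 FPKM in both libraries, and their summed level was 2646 and 2610 FPKM. The 3 green-tissue genes summed to 502.9 and 444.0 FPKM. Of the 3 endosperm genes, the 2 that could be paired were abundant. GluA1, a glutelin seed storage protein gene, was at 2801 and 2856 FPKM, on a row spanning 11829 bp. Wx, the starch synthase of amylose, was at 215.6 and 206.1 FPKM. The part of endosperm or green tissue in the levels of the clock genes was not tested, and in bulk tissue fewer cells of a type and less RNA per cell cannot be told apart.

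OsGI was by far the most abundant clock gene, and every clock gene row reached 10 FPKM in both libraries. This held for 10 of 10 clock gene rows, against 10931 of the 54168 rows with 1 locus ID. The median level of the clock gene rows was 31.8 and 31.4 FPKM. Over all 20461 rows with 1 locus ID whose mean reached 1 FPKM, the medians were 11.9 and 11.7 FPKM.

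**Figure D1:**
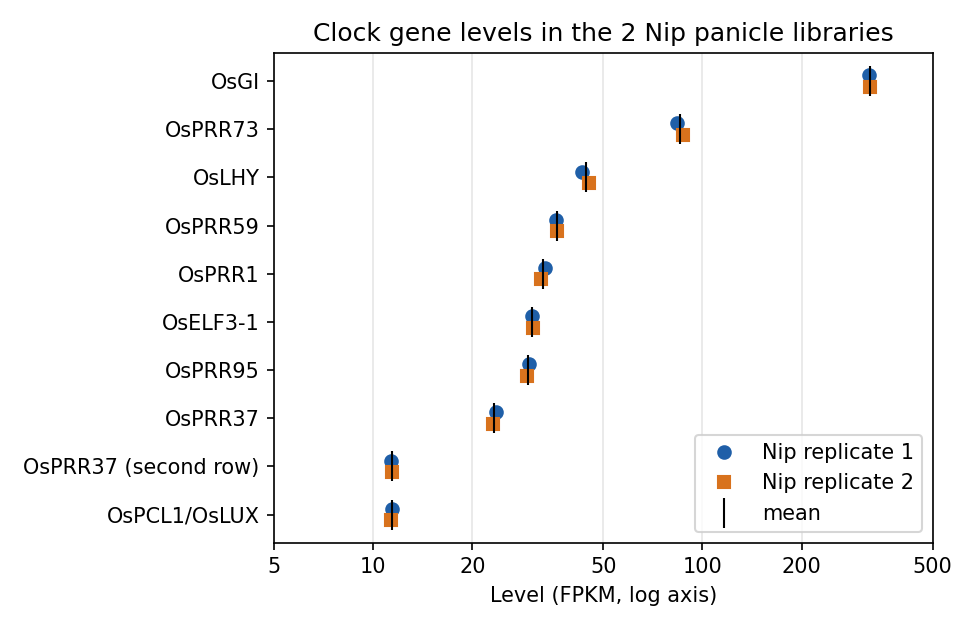
Level of each clock gene row in the 2 Nip libraries (horizontal log axis, FPKM), ordered by the mean, which is drawn as a vertical tick. Circles are replicate 1 and squares replicate 2. OsGI lies above 321 FPKM, the middle rows lie between 23.0 and 87.2 FPKM, and the second OsPRR37 row and OsPCL1/OsLUX share the lowest level.

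OsLHY, the dawn-phased MYB repressor, was the third most abundant clock gene. Its locus lies on chromosome 8 from 3360811 to 3373550 in the coordinates of the table, of unstated genome build. Its level was 43.2 FPKM in the first library and 45.2 FPKM in the second (mean 44.2 ± 1.41, SD, n = 2). Replicate 2 was the higher library, and the gap of 4.53% of the mean was the widest among the clock genes. The level stood above 84.6% of the rows with 1 locus ID and at least 1 FPKM.

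Among the pseudo-response regulators, OsPRR73 stood apart at a level above that of OsLHY, while OsPRR59, OsPRR1 and OsPRR95 stood close together. OsPRR73 (chromosome 3, 9759478 to 9768735), a regulator of the morning to midday arm of the cascade, was at 83.6 and 87.2 FPKM, a mean of 85.4 ± 2.52. It was again higher in replicate 2, by 4.18% of the mean. Within each library it stood 1.94-fold (replicate 1) and 1.93-fold (replicate 2) above OsLHY.

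OsPRR37, the close paralog of OsPRR73 and a repressor of heading under long days, was lower. The table lists this locus (chromosome 7, 29616704 to 29629223) on a pair of rows with the same ID and the same coordinates. The first row held 23.6 and 23.0 FPKM, a mean of 23.3 ± 0.424. The second row held 11.3 and 11.4 FPKM, a mean of 11.4 ± 0.0351. The ratio of the rows was 2.08 in replicate 1 and 2.02 in replicate 2, so both libraries divided the locus in nearly the same way. The sources used here do not say what the rows stand for. The table lists each of the 12 chromosomes in 3 ascending runs, with the first row in run 1 and the second in run 2. In all, 694 locus IDs had several rows at 1 position, and for 650 of them each row was in a different run.

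OsPRR73 exceeded OsPRR37 whichever way these rows were read. Against the first row alone, OsPRR73 was 3.54-fold higher in replicate 1 and 3.79-fold higher in replicate 2. With the rows of OsPRR37 summed, its level was 35.0 and 34.4 FPKM, which would place it next to OsPRR59. The genes are paralogs, and how reads shared by them were assigned is not known.

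OsPRR95 and OsPRR59, the pair of paralogs that act later in the day, were at similar levels. OsPRR95 (chromosome 9, 20885171 to 20889843) was at 29.8 and 29.3 FPKM in replicates 1 and 2, a mean of 29.5 ± 0.302. The locus listed as OsPRR59 (chromosome 11, 2788995 to 2793735) was at 36.0 and 36.1 FPKM, a mean of 36.0 ± 0.0484, and its gap of 0.190% of the mean was the narrowest of the clock genes. OsPRR59 was higher in both libraries, 1.21-fold and 1.23-fold, with no overlap between the values of the genes.

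OsPRR1, the rice counterpart of the Arabidopsis evening gene TOC1, which represses LHY, stood between that pair. Its locus (chromosome 2, 24569293 to 24572560) was at 33.1 and 32.3 FPKM, a mean of 32.7 ± 0.558. OsLHY, its dawn-phased partner, was 1.30-fold higher in replicate 1 and 1.40-fold higher in replicate 2.

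OsGI, the rice GIGANTEA, acts upstream of Hd1 in the photoperiod pathway. Its locus lies on chromosome 1 from 4329151 to 4338486. It held 321.4 and 323.4 FPKM, ranked 216 among all rows and alone made up 51.5% and 51.4% of the summed FPKM of the 10 clock gene rows. Within a library it was 7.45-fold (replicate 1) and 7.16-fold (replicate 2) above OsLHY, and 3.84-fold and 3.71-fold above OsPRR73, the next in order. The neighbouring loci were far lower: LOC_Os01g08690 was at 10.5 and 11.3 FPKM and LOC_Os01g08710 at 6.35 and 6.16 FPKM.

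The evening complex genes were expressed unequally. OsELF3-1 (chromosome 6, 2234118 to 2239162), a scaffold subunit known from rice as a heading date gene, was at 30.4 FPKM in both replicates, a mean of 30.4 ± 0.0552. OsPCL1/OsLUX (chromosome 1, 42874206 to 42875515), the DNA-binding MYB-like subunit, was the least abundant clock gene at 11.4 and 11.3 FPKM, a mean of 11.4 ± 0.0455. OsELF3-1 was 2.67-fold and 2.69-fold above OsPCL1/OsLUX in replicates 1 and 2. OsPCL1/OsLUX lay near the middle of expressed loci, above 48.8% of rows with 1 locus ID and at least 1 FPKM, whereas OsELF3-1 lay above 76.4%.

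The descending order was OsGI, OsPRR73, OsLHY, OsPRR59, OsPRR1, OsELF3-1, OsPRR95, the first OsPRR37 row, the second OsPRR37 row and OsPCL1/OsLUX. Of the 45 pairs of these rows, 44 had the same order in both libraries. The exception was the last step, where the values of the second OsPRR37 row and OsPCL1/OsLUX overlapped. The narrowest step without overlap was from OsELF3-1 to OsPRR95, with a gap of the means of 0.865 FPKM against summed SDs of 0.357 FPKM. OsELF3-1 was only 1.02-fold above OsPRR95 in replicate 1 and 1.04-fold in replicate 2. For a transcript of 1 kb, counting of fragments alone would give the log2 difference between the libraries an SD of 0.078 for OsELF3-1 and 0.079 for OsPRR95. These SDs belong to the difference between libraries within a gene, not to the difference between the genes. The order of levels this close is not settled. With 2 libraries no test between genes was made, and an SD over 2 values is itself imprecise.

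The Nip libraries differed from each other in each clock gene by at most 4.53% of its mean, with the widest gaps in OsLHY and OsPRR73. On the log2(FPKM + 1) scale, replicate 1 minus replicate 2 was -0.06 for OsLHY, -0.06 for OsPRR73, 0.04 for the first OsPRR37 row and 0.03 for OsPRR1. OsPRR95 differed by 0.02, and each of the other 5 rows by less than 0.01. Replicate 1 was the higher library for 4 rows and replicate 2 for 6.

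**Figure D2:**
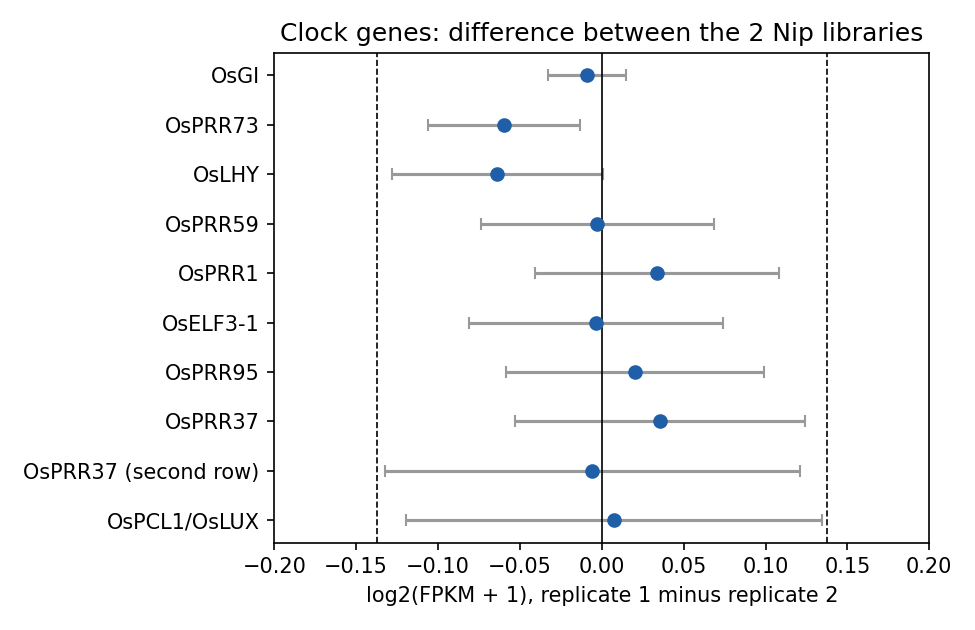
Difference between the libraries for each clock gene row, as log2(FPKM + 1) of replicate 1 minus replicate 2. Grey bars are ± 1 SD of counting error alone for a transcript of 1 kb, and dashed lines mark a 1.1-fold difference. All 10 points lie inside the dashed lines, with OsLHY and OsPRR73 farthest to the left.

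None of the 10 clock gene rows differed at least 2-fold between the libraries, against 0.699% of all 20461 rows tested (1 locus ID and mean FPKM of 1 or more). This share is too low for 10 rows to be read against it. None differed at least 1.1-fold either, a limit chosen after the values were seen, against 27.2% of all rows tested and 14.3% of the 10272 rows within the range of mean FPKM of the clock genes. The median absolute log2 difference was 0.015 for the clock genes, 0.053 for rows within their range and 0.074 for all rows tested. These are descriptions: the clock genes are few, they were not drawn at random, and longer transcripts carry more fragments at a given FPKM.

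**Figure D3:**
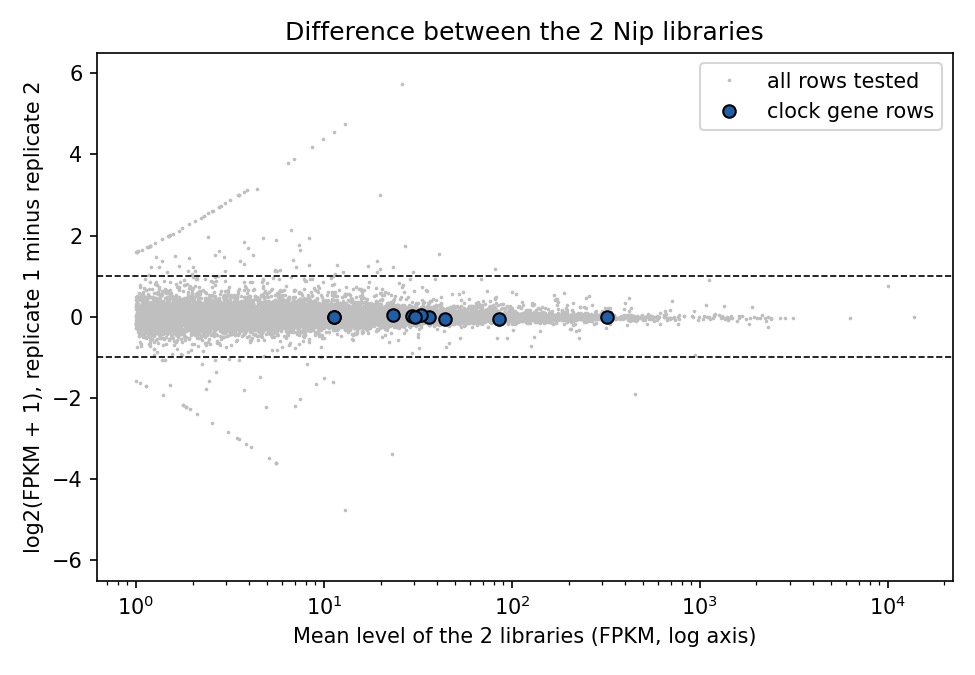
Difference between the 2 Nip libraries (vertical axis, log2(FPKM + 1), replicate 1 minus replicate 2) against the mean level (horizontal log axis, FPKM) for the 20461 rows tested (grey) and the 10 clock gene rows (blue). Dashed lines mark a 2-fold difference. The clock gene rows lie at the centre of the cloud, and straight rays of grey points are rows listed at 0 in a library.

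Counting error sets how finely these levels can be compared. For a transcript of 1 kb, the level of OsPCL1/OsLUX would rest on 267 fragments in replicate 1 and 250.2 in replicate 2, and counting alone would give the log2 difference an SD of 0.13. For OsGI the same SD would be 0.024. OsPRR73 was the clock gene whose difference (0.06) exceeded the counting SD at 1 kb (0.046), and the difference of OsLHY was about equal to its own (0.064 against 0.064). Transcript lengths are not in the table, so the true fragment numbers may be higher or lower. The libraries were not copies of 1 another: among rows of 800 to 2000 bp at 100 to 1000 FPKM, the spread between them was 2.55 times that of counting alone, with the locus span taken as length. It was 1.99 times at 10 to 100 FPKM, the range of level of every clock gene row but OsGI, and 1.45 times at 1 to 10 FPKM. Where a span is longer than the transcript, the fragments are overstated and these ratios come out too high. Of the clock gene rows, only that of OsPCL1/OsLUX (1310 bp) has a span of 800 to 2000 bp, so the others were not among the rows measured.

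No row of the table with other coordinates overlapped a clock gene locus. Rows with the same coordinates as a clock gene, such as the second OsPRR37 row, were not counted. Of all rows with 1 locus ID, 80.7% lay below OsPCL1/OsLUX, the least abundant clock gene, and 99.6% below OsGI. The median of all these rows was 0.0488 FPKM. The nearest loci with 1 ID on each side of a clock gene, 18 in all, had a higher median of 5.99 FPKM. Of these loci, 14 were lower than the clock gene beside them, as most rows are, so this is no trait of the neighbours. The 4 exceptions lay next to OsLHY, OsPRR1 and OsPCL1/OsLUX. LOC_Os08g06100, before OsLHY, was at 142.8 and 148.5 FPKM, and LOC_Os02g40514, after OsPRR1, at 80.5 and 86.2 FPKM. OsPCL1/OsLUX lay between a pair of loci of like level, LOC_Os01g74010 at 14.5 and 15.7 FPKM and LOC_Os01g74030 at 13.5 and 13.3 FPKM.

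Phytochromes, the red-light receptors that set the clock, stood within the range of the PRR genes. These were the 3 of 7 listed light input genes that could be paired with their symbol. PHYA was at 54.4 and 55.1 FPKM, PHYB at 38.2 and 37.8 FPKM, and PHYC at 31.3 and 29.8 FPKM.

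The 5 of 9 listed genes of the photoperiod output of the clock that could be paired had a median of 7.58 and 8.42 FPKM, against 31.8 and 31.4 FPKM for the clock gene rows. The other listed genes are not in this median. Hd16, a casein kinase of the heading date pathway, was the highest of the 5 at 29.3 and 29.8 FPKM, close to OsPRR95 and above both OsPRR37 rows and OsPCL1/OsLUX. Hd1, the CONSTANS homolog downstream of OsGI, was at 10.2 and 11.0 FPKM. The florigen gene Hd3a was at 7.58 and 8.42 FPKM, and OsMADS50, whose row holds 2 locus IDs, at 3.63 and 3.44 FPKM. DTH8, a NF-YB subunit that regulates heading, was at 0.0252 and 0.0539 FPKM.

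**Figure D4:**
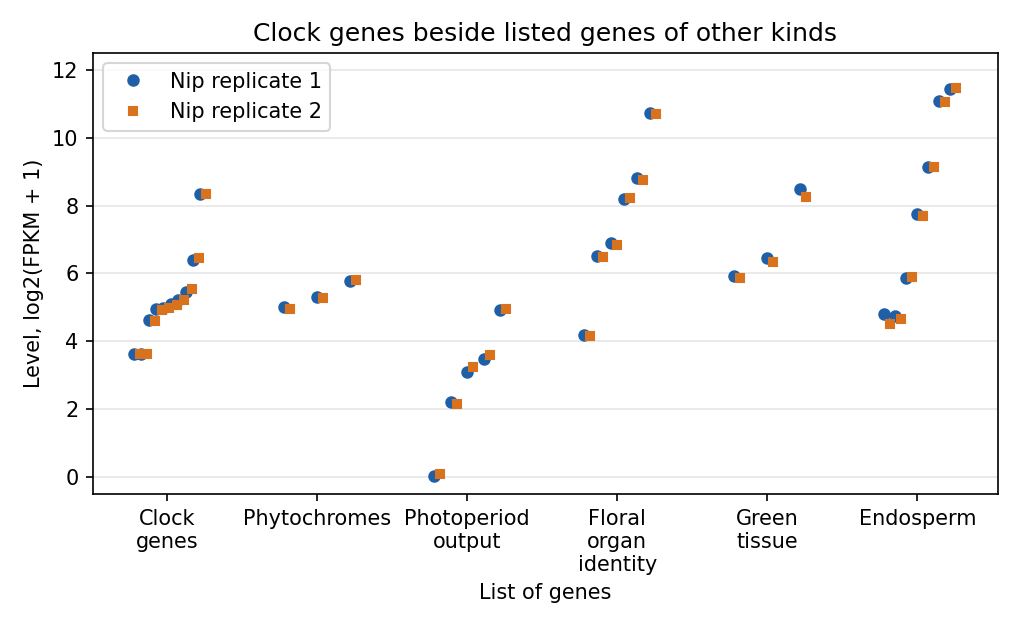
Level of each gene as log2(FPKM + 1) in both Nip libraries for the clock gene rows, the phytochromes, the photoperiod output genes and the floral, green-tissue and endosperm genes that could be paired with a symbol. Circles are replicate 1 and squares replicate 2, each placed a little apart. OsGI reaches the level of floral organ identity genes such as OsMADS7, and the endosperm list holds the highest points.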

How the data were processed

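Poly(A)-selected RNA of young panicle was sequenced, per the labels' protocols. The authors deposited FPKM values for each gene, per the file headers, in 1 table whose rows pair 2 libraries. The submitters' processing notes name TopHat, with no version. The sources used here state neither the expression estimator, the build, the annotation nor a scaling between libraries, and no strand-marking step. The table's ck1 and ck2 were taken as Nip replicates 1 and 2; reading ck as control is an inference. The other 4 library names, ck3 and those of the mutant, were not used, and osrdr2-3 was not analysed here.

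Means, SDs and log2(FPKM + 1) differences were computed in Python 3.11.15 with pandas 2.3.3 and numpy 2.4.6, with genome-wide comparisons over single-ID rows whose mean reached 1 FPKM. The counting of 2-fold rows was run on simulated data with changes well above 2-fold in abundant rows. That checks the counting step only, not changes near 2-fold or at low levels. All members were named, whatever their values, and of the other lists the genes paired with RefSeq symbols (assembly ASM3414082v1). A pair needed the same chromosome, an offset within 5 Mb, and either a length within 10% of the span or an offset within 250 kb of that of the nearest other listed gene. None of 9 further clock-associated loci met this rule, and they are not reported. Fragments per FPKM were estimated from the 0.1 percentile of FPKM times span, over rows of 800 to 2000 bp. The members and lists were chosen with earlier results of these data known. Listed genes with no such pair, and 1 further gene of the photoperiod output, are not reported here.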

Additional observations from a re-analysis of the deposited data

How the results depend on the processing

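All 9 clock genes reached the minimum level in both libraries, and this held at a minimum of 0.5 or 5 FPKM, after median-ratio scaling and in each library alone. No clock gene row differed at least 2-fold with a pseudocount of 0.1 or 0.5, with no filter on low values, with a mean of at least 5 FPKM or after scaling. The largest difference among them, that of OsLHY, was 0.064 on the log2 scale and between 0.064 and 0.066 under these settings. The median ratio of the libraries was 1.001, so scaling could hardly move a value, and with 2 libraries leaving out 1 cannot test stability.

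Over all rows tested, 143 differed at least 2-fold. There were 238 with a pseudocount of 0.1 and 46 with a mean of at least 5 FPKM. At least 1.1-fold was the difference of 5569 rows, of 8785 with no filter and of 2757 with a mean of at least 5 FPKM. Summing the OsPRR37 rows, a choice made after the data were seen, moved its level from 23.3 to 34.7 FPKM. No paired analysis was possible because no mutant library could be used. The planned test between the genotypes and the promoter motifs were not run, the latter because no promoter sequences were at hand.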

Other observations

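Genes of the seed endosperm, the starch and protein store of the grain, were among the most abundant in both Nip libraries, although the tissue is labelled young panicle. GluA1 ranked 5 among all rows. A further list of 6 endosperm genes was chosen after this was seen, and 5 of them had a RefSeq symbol. PROLM25, a prolamin storage protein gene, held 2176 and 2113 FPKM (replicate 1 first) and ranked 13. RAG2, a seed allergen gene, was at 560.0 and 562.4 FPKM. The starch synthase genes SSI and SSIIa were at 57.9 and 59.2 FPKM and at 25.9 and 24.2 FPKM. NF-YB1, a transcription factor gene of the endosperm, was at 27.2 and 21.9 FPKM, the widest gap of the list at 0.30 on the log2(FPKM + 1) scale. Glutelin and prolamin genes have near-identical copies, which makes the level of any single one uncertain. Which stage of panicle the libraries hold was not tested.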
